A study of Mus musculus with 8 samples.

Results

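Methylation at genes known for their place in regulatory T cells was followed through whole-genome bisulfite data from mouse B cells and naive T cells. The genes were chosen by name, with earlier results of these data known, as Il2ra, Ctla4, Tnfrsf18, Tnfrsf4, Ikzf2 and Ikzf4. Each was taken as its gene body with 10 kb to each side on GRCm38 (GENCODE M21 annotation). The 6 genes stand among 21596 protein-coding genes whose own regions could be tested in the same way. Together their regions held 3214 CpGs, each counted once, that all 4 files covered by at least 5 reads.

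Regulatory T cells are CD4+ cells that restrain other lymphocytes and depend on the transcription factor Foxp3. Alongside Foxp3 they keep a set of elements free of methylation, several of which lie in introns or exons of their signature genes, and these elements are largely methylated in conventional T cells. The receptors in this set, CD25, CTLA-4, GITR and OX40, are also induced on conventional T cells once they are activated, and Helios and Eos are zinc finger factors of the Ikaros family.

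The study sorted lymphocytes from spleens of C57BL/6J mice aged 6 to 8 weeks. Its 8 bisulfite samples form 4 groups of 2, B cells from females and from males and naive T cells from females and from males, all of the same strain with no transgene or treatment named in the labels. B cells were CD43-, a resting population. T cells were first depleted of other lineages, of regulatory T cells through CD25 and of TCRγδ cells, then sorted as CD4+, CD62Lhi, CD44lo and CD25-. CD25 is the product of Il2ra, so for that gene the sort used the protein of a gene described here. Cells were pooled over animals, and 1 methylation file served both samples of a group. Each group thus gave 1 value, and 4 files entered every main fit. Each file name carries the number of 1 sample of its group. Whether the reads of a file come from the pair of samples or from that single one is not stated in the labels. With cell type and sex as terms, what is left as spread is how far the B to T difference departs between the sexes, and for windows a common value over the genome stood in for it. The p-values therefore do not measure the spread between animals.

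In bisulfite data the methylation level is the share of reads that kept a cytosine at a CpG. It counts 5-methylcytosine and 5-hydroxymethylcytosine alike, and it averages over the cells and alleles in a sample, so fewer methylated cells and fewer methylated alleles per cell cannot be told apart. The files held 278275973 to 339923001 reads on autosomal CpGs, a mean depth of 14.6 to 17.7 reads per CpG. Autosomal methylation was 79.5% to 80.7% in the 4 files. By the criteria for a call given below, promoters of T cell markers such as Cd3e and Themis were lower in T cells for 9 of 9 genes. Those of B cell markers such as Ms4a1 and Cd22 were called lower in B cells for 6 of 7. Cr2 was not called, at 10.7% and 8.35% in B cells and 13.5% and 14.4% in T cells of females and males. None of 5 myeloid and 3 NK cell marker promoters met both criteria for a call given below, but that of the myeloid marker Lyz2 had an adjusted p of 0.0477, with 41.5% and 50.7% in B cells and 64.1% and 66.7% in T cells of females and males.

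Levels in windows of 1 kb on a fixed grid were compared between B and T cells across the genome. A window was called where a quasi-binomial regression on cell type and on sex gave an adjusted p under 0.05 and the mean difference, B minus T, was 20 percentage points or more. Of 341 windows tested in the 6 regions, 32 (9.38%) were called, against 2.08% of all windows tested and 2.78% of those in or within 10 kb of a protein-coding gene. Higher methylation in B cells held for 28 of them (8.21%), where 1.17% of all windows and 1.59% of gene windows were called in that direction. Lower methylation in B cells held for 4 (1.17%), beside 0.914% of all windows and 1.19% of gene windows. In each of the 32 the female and male differences had the same sign, which a call on the mean of both makes likely. Under limma on log2 ratios 17 windows were called, all of them higher in B cells. The median difference in called windows was 32.5 points in size, close to the 30.03 points of called windows over the genome. Over all tested windows of the 6 regions the median of B minus T was -0.81 points, and over the genome it was 0.049 points. In 229 of the 341 windows (67.2%) methylation was above 80% in all 4 files.

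**Figure D1:**
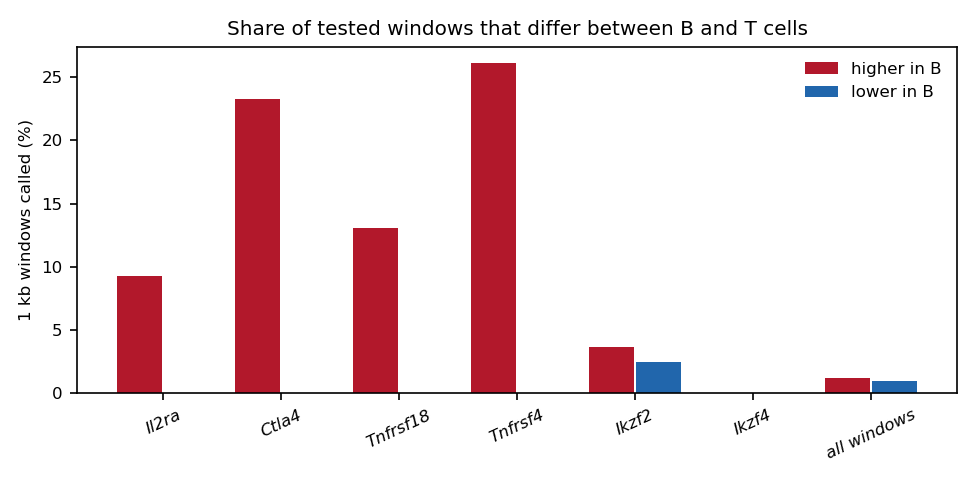
The share of tested 1 kb windows that were called, as a percentage on the vertical axis, for each gene's region and for all windows of the genome. Red bars are windows higher in B cells and blue bars windows lower in B cells. Tnfrsf4 (26.1% called in all) and Ctla4 (23.3%) had the highest shares, and Ikzf4 had none.

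The calls were uneven over the genes. Ctla4 had 10 called windows of 43 tested, Tnfrsf4 had 6 of 23, Tnfrsf18 had 3 of 23, Il2ra had 6 of 65, Ikzf2 had 10 of 164 and Ikzf4 had 0 of 34. The Tnfrsf4 and Tnfrsf18 genes are neighbours whose regions share 11 windows, 3 of them called, and these are counted once in the total. No called window at all was found for 52.4% of the 21596 coding genes. Among the called windows, 13 lay upstream of the principal transcript and the 4 windows lower in B cells all belonged to Ikzf2.

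Averaged over whole regions, a description with no test, 4 genes had lower levels in both T files than in both B files, though for Ikzf4 the male files were nearly level. Tnfrsf4 stood at 87.3% in B cells of females and 88.0% in those of males, while T cells stood at 72.2% and 72.9% in the same order of the sexes, which is kept for all pairs of values below. Ctla4 stood at 85.7% and 84.7% in B cells, and at 77.4% and 78.3% in T cells. Tnfrsf18 stood at 65.9% and 67.7% in B cells, and at 58.7% and 58.3% in T cells. For Il2ra (76.3% and 77.4% in B cells, 77.2% and 77.1% in T cells) and Ikzf2 (80.7% and 82.4% against 82.3% and 81.5%) the files of both cell types overlapped, and Ikzf4 stood at 71.6% and 69.83% against 68.4% and 69.77%.

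**Figure D2:**
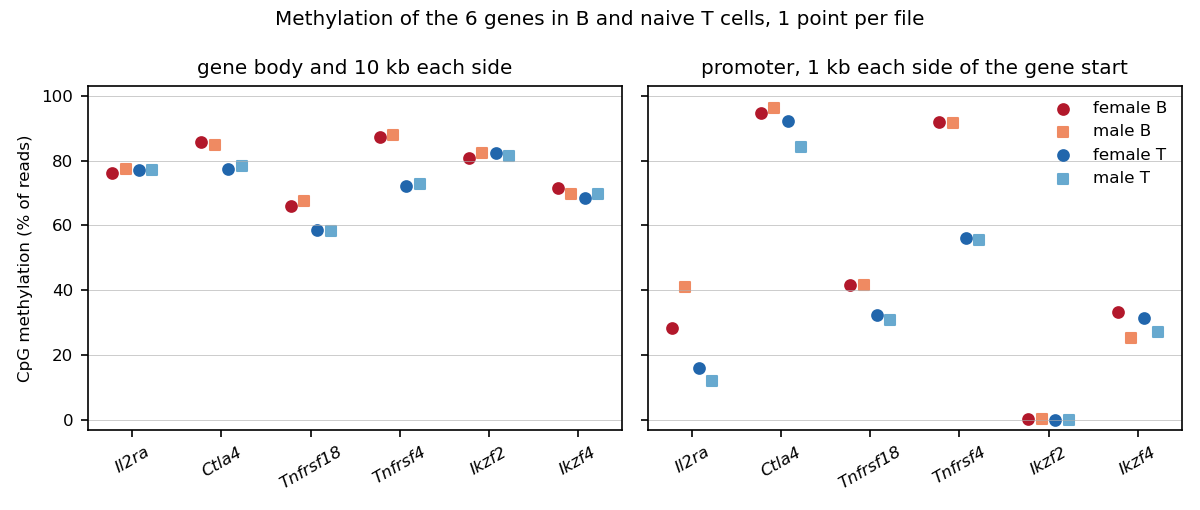
CpG methylation as a percentage of reads for the 6 genes, over the gene body with 10 kb to each side (left) and over the promoter, 1 kb to each side of the gene start (right), with 1 point per file. B cells (red and orange) lie above T cells (blue) over the regions of Ctla4, Tnfrsf18 and Tnfrsf4, and at the promoter Tnfrsf4 shows the largest gap, 91.8% and 91.7% against 56.0% and 55.6%.

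Il2ra (chr2:11642807-11693193, plus strand) encodes CD25, the alpha chain that gives the IL-2 receptor its high affinity. All 6 of its called windows were higher in B cells and all lay in intron 1, between 0.69 and 15.7 kb after the start. In the first of them, at 0.69 kb, methylation was 91.5% and 91.0% in B cells, and 54.4% and 46.0% in T cells (adjusted p = 1.34e-08). At 8.69 kb B cells stood at 74.5% and 79.1%, T cells at 34.7% and 37.0% (adjusted p = 5.97e-09). At 4.69 kb the gap was smaller, 85.7% and 82.4% against 62.2% and 51.9% (adjusted p = 6.26e-05), and under limma on log2 ratios this window was not called (adjusted p = 0.117). In each of these windows both T files lay below both B files. Some Il2ra windows further on had the opposite order without a call. At 38.7 kb, in intron 4, B cells stood at 65.6% and 78.7%, T cells at 94.0% and 89.9%. That B minus T of -19.8 points (adjusted p = 2.43e-05) was just under the size set for a call. At 36.7 kb it was -11.3 points (adjusted p = 4.41e-07).

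Intron 1 as a whole hid its called windows. The elements that regulatory T cells keep free of methylation in introns of Il2ra, Ikzf2 and Ikzf4 could not be placed more closely than the intron, so whether a called window covers one was not tested. Over its 31230 bases and 209 CpGs the level in B cells was 67.01% (95% exact binomial interval 65.2 to 68.8) and 68.1% (66.3 to 69.7), and in T cells 65.7% (64.1 to 67.2) and 65.1% (63.5 to 66.7). Of the 30 windows that overlapped it, 12 exceeded 80% in all 4 files, and a window at 10.7 kb was low in all of them, at 10.1% and 5.24% in B cells and 4.13% and 3.41% in T cells. The Il2ra intron 1 windows downstream of 20 kb held no call. These intervals and all others given here cover counting error only, since reads of the same molecule could not be told apart.

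The stretch of called Il2ra windows with the most CpGs within 300 bases holds the 6 CpGs of the 4.69 kb window and is shown on the plus strand of GRCm38, with each CG in capitals. Its levels per CpG ran from 66.7% to 100% in B cells and from 10.0% to 92.9% in T cells. The first CpG was high in all files, and the third, at base 106, had the widest gap, with 80% and 66.7% in B cells beside 35.0% and 10.0% in T cells. Promoter bases before the RefSeq start follow it, because the B cell files also differed from each other there.
Il2ra intron 1 chr2:11647311-11647521: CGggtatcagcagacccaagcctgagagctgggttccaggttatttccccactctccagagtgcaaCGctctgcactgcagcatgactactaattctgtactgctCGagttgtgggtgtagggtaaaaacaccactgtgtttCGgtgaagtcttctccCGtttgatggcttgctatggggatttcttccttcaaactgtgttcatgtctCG
Il2ra promoter chr2:11642542-11642791: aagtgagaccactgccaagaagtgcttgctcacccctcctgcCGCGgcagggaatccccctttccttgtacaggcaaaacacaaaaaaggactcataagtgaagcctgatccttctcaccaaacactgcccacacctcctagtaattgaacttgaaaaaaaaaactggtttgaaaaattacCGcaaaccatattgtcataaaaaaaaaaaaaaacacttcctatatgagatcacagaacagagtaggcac

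Over the 3 CpGs of those 250 promoter bases both T files were at 0.0% and the B files at 9.52% and 43.9%. Counts of 0 among 44 and 24 reads, summed over the 3 CpGs, allow shares of up to 6.82% and 12.5% (3 counts of the total). A molecule that spans several CpGs is counted at each of them, here and in the other limits of this kind below. The true limits can therefore be higher. Over the promoter proper, 1 kb to each side of the gene start with 12 CpGs, Il2ra stood at 28.4% and 41.0% in B cells and at 15.9% and 12.2% in T cells. The difference of 20.7 points did not pass the test (adjusted p = 0.0523), with a gap of 12.5 points in females and 28.8 points in males. With 500 bp to each side it did, at 27.8 points (adjusted p = 0.00687).

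Ctla4 (chr1:60887000-60915832, plus strand) encodes the inhibitory receptor that competes with CD28 for CD80 and CD86. All 10 of its called windows were higher in B cells, and most of them formed a distal and a proximal group. Distances are from the start of the principal transcript to the centre of a window, negative upstream. The distal group lay at -28.5, -26.5 and -25.5 kb, before the first base of the gene record. At -26.5 kb methylation was 85.4% and 96.2% in B cells, and 10.9% and 25.5% in T cells, a difference of 72.6 points (adjusted p = 1.95e-21). At -28.5 kb it was 90.3% and 89.4% against 35.9% and 35.1% (adjusted p = 1.9e-47). At -25.5 kb it was 100% and 94.9% against 40.6% and 46.7% (adjusted p = 1.68e-17).

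The proximal group ran through the start, with 4 called windows in a row from -1.52 to 1.48 kb. In the window just after the start Ctla4 methylation was 49.0% and 62.5% in B cells, and 13.8% and 18.8% in T cells (adjusted p = 1.12e-12). Both T files again lay below both B files. The remaining calls lay at -14.5, 5.48 and 11.5 kb.

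The distal stretch shown first is the Ctla4 run of at least 4 neighbouring CpGs with the largest difference that fits in 300 bases. Its 1 kb window overlaps Gm38137, a record annotated as awaiting experimental support. The second is the promoter, 250 bases before the RefSeq start. The third is from exon 2, printed as a contrast because exon 2 is an element that regulatory T cells are known to keep free of methylation. All are plus strand of GRCm38 with CG in capitals.
Ctla4 distal chr1:60880173-60880440: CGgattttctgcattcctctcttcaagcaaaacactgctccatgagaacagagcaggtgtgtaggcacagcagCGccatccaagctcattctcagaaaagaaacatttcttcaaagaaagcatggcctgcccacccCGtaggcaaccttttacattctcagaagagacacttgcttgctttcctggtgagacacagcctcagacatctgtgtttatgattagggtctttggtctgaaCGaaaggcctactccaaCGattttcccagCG
Ctla4 promoter chr1:60908775-60909024: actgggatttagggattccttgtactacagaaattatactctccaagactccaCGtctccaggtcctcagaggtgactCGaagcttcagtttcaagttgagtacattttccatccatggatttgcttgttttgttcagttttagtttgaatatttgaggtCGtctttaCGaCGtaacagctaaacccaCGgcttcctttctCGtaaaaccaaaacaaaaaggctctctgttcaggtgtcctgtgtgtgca
Ctla4 exon 2 chr1:60912472-60912754: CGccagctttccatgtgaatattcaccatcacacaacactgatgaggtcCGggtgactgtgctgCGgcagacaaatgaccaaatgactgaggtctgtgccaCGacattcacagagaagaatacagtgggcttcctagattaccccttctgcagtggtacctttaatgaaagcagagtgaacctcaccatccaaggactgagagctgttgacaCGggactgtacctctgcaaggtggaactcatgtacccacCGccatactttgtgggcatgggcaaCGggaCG

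The 6 CpGs of the distal Ctla4 stretch together were at 90.0% and 85.1% in B cells and at 6.92% and 14.0% in T cells, and no CpG exceeded 25% in a T file. Over the 7 CpGs of the promoter bases B cells stood at 44.9% and 38.5% and T cells at 2.38% and 1.48%. B cell levels of single CpGs in the promoter varied, with 100% and 80% at base 79 and 7.14% and 13.6% at base 189.

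Exon 2 of Ctla4 showed no such gap. Its 8 CpGs were at 95.1% (interval 88.9 to 98.4) and 98.0% (94.3 to 99.6) in B cells, and at 99.4% (96.6 to 99.98) and 98.1% (94.7 to 99.6) in T cells. The lowest single CpG in a T file was at 94.4%. Ctla4 in these naive T cells thus had low levels around its start and far upstream, and levels above 98% at exon 2. The 1 kb window that overlaps exon 2 is centred 3.48 kb after the start.

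The promoter value of Ctla4 depended on which start was used. The gene record begins far upstream of the principal transcript, and 1 kb to each side of that base Ctla4 stood at 94.7% and 96.1% in B cells and 92.1% and 84.2% in T cells (adjusted p = 0.233). Around the start of the principal transcript, a choice made after seeing the data, it stood at 55.5% and 56.7% in B cells and 29.3% and 23.3% in T cells, a difference of 29.8 points (adjusted p = 0.00448).

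**Figure D3:**
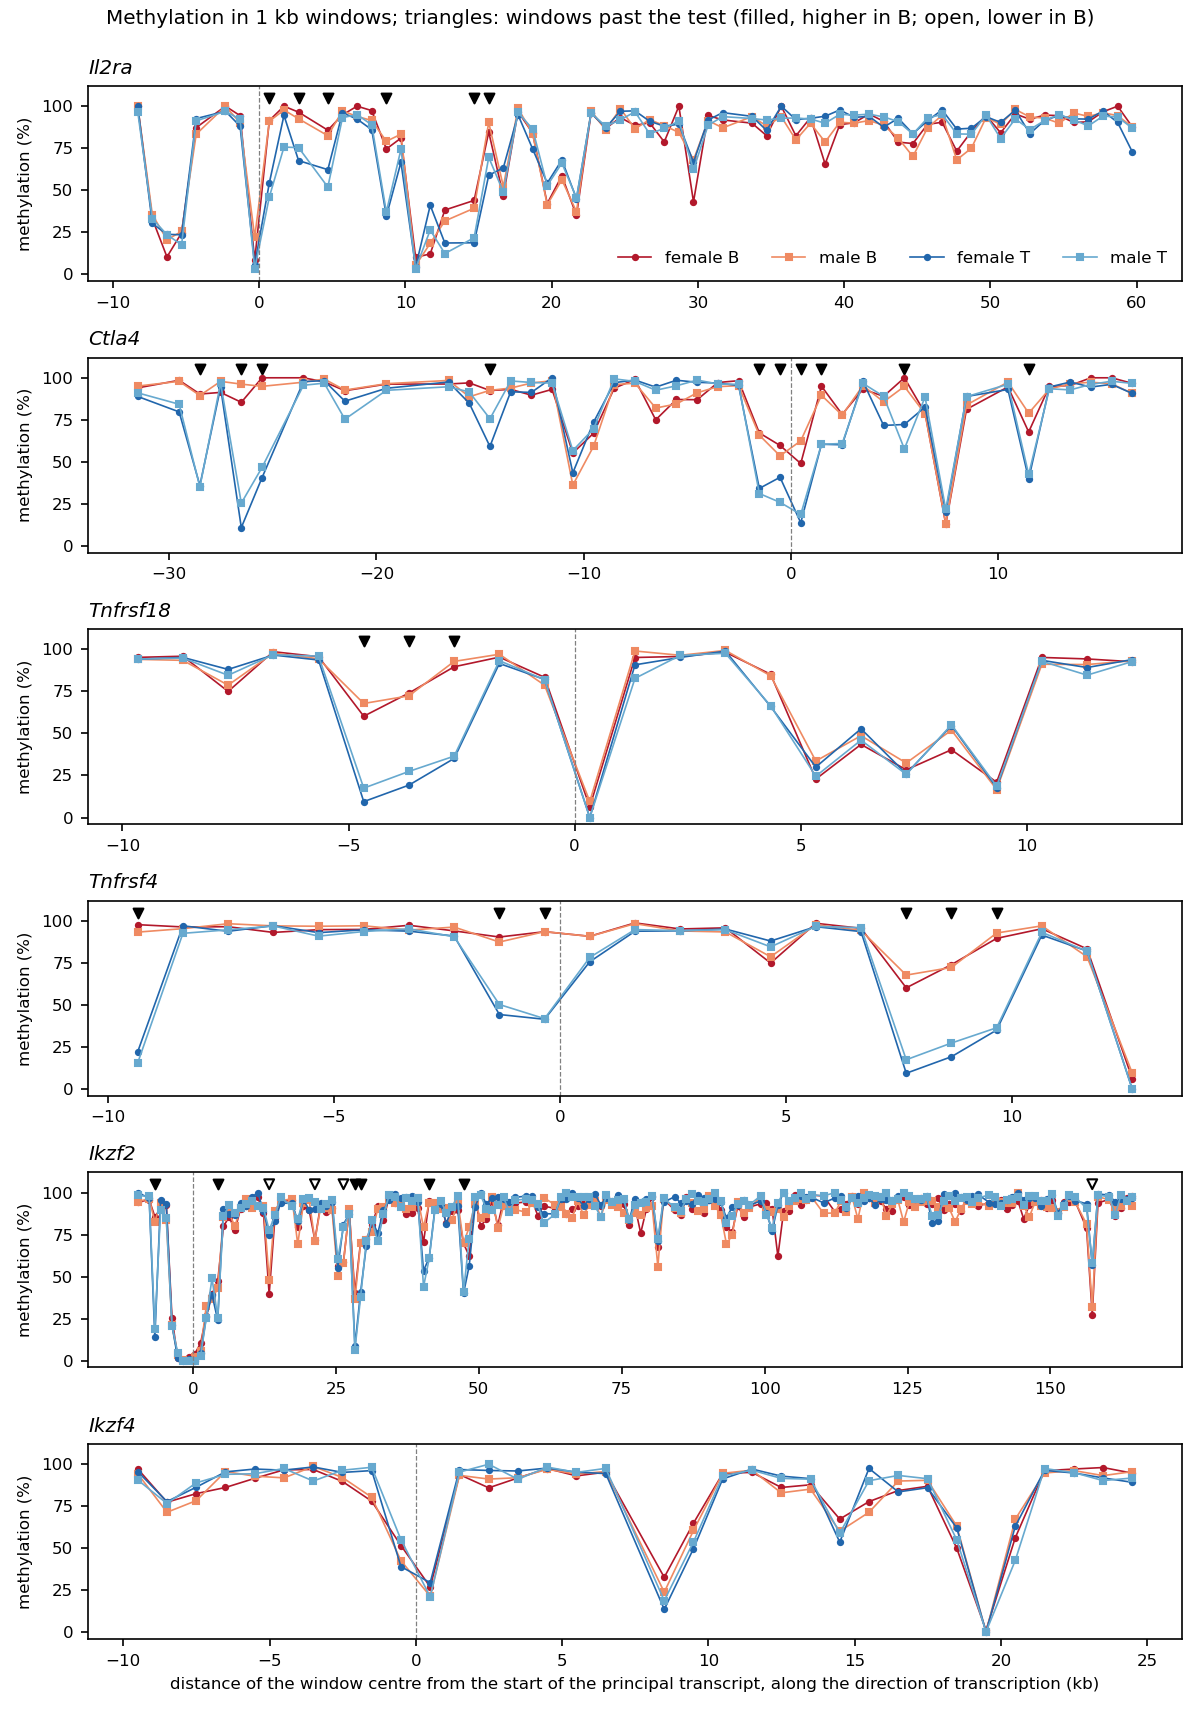
CpG methylation (percent of reads, vertical axis) in 1 kb windows against distance from the start of each gene's principal transcript in kb, with 1 line per file and the start as a dashed line. Filled triangles mark windows higher in B cells and open triangles windows lower in B cells. T cell lines lie far below B cell lines at -28.5, -26.5 and -25.5 kb of Ctla4 and at -4.66 to -2.66 kb of Tnfrsf18. The same holds at -9.34 kb of Tnfrsf4 and at -6.68 kb of Ikzf2. In 229 of the 341 windows all 4 lines are above 80%.

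Tnfrsf18 (chr4:156026164-156028895, plus strand) and Tnfrsf4 (chr4:156013843-156016612, plus strand) encode the costimulatory receptors GITR and OX40 of the tumour necrosis factor receptor family. Between the 2 genes lay 3 adjoining called windows, at -4.66, -3.66 and -2.66 kb of Tnfrsf18. In the first, B cells stood at 60.3% and 67.8%, T cells at 9.45% and 17.5% (adjusted p = 4.81e-23). In the second it was 74.0% and 72.4% against 19.3% and 27.4% (adjusted p = 3.65e-59). In the third it was 89.7% and 92.9% against 35.1% and 36.5% (adjusted p = 1.8e-44), but with at least 10 reads per CpG the difference in this window was 23.2 points instead of 55.4 (adjusted p = 1.17e-05). The antisense gene Gm16008, the snRNA gene Gm25982 and Gm37090, a record annotated as awaiting experimental support, overlap this block.

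Within the block 4 runs of neighbouring CpGs differed. In the shortest, 24 bases with 4 CpGs, 0 of 87 and 0 of 93 reads, summed over the CpGs, were methylated in the T files. As separate reads these would allow up to 3.45% and 3.23%. Within 24 bases a molecule can be counted at all 4 CpGs, so the true limits can be higher. B cells were at 75.5% and 82.4%. The run with the largest difference of those at least 50 bases long and within 300 bases is shown for Tnfrsf18, on the plus strand of GRCm38. Tnfrsf4 is shown by the densest 250 bases of its most different run outside untranslated regions, in a window that overlaps the neighbouring gene Sdf4.
Tnfrsf18 upstream chr4:156022497-156022645: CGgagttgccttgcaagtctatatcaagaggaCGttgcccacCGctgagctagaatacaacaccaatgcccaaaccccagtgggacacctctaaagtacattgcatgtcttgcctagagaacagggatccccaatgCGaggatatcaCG
Tnfrsf4 upstream chr4:156004338-156004587: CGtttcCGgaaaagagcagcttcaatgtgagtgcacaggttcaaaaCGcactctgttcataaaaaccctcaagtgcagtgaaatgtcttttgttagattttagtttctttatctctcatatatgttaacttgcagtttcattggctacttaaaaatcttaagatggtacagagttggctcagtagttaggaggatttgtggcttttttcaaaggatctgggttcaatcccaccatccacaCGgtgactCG

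The 5 CpGs of the Tnfrsf18 stretch were at 93.3% and 86.7% in B cells and at 9.71% and 12.6% in T cells. The first and second of them were at 0.0% in both T files. In the Tnfrsf4 stretch all 5 CpGs were at 0.0% in both T files. Summed over the CpGs there were 51 reads in female and 107 reads in male T cells (up to 5.88% and 2.8% as separate reads). B cells stood at 100% and 94.4%. This is a gap of 97.2 points, and since runs were picked for their gap it is given as a description.

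At its own start Tnfrsf18 was nearly unmethylated in all files. The window over exon 1 was at 6.31% and 9.54% in B cells and at 0.0% in both T files. As separate reads these T values allow up to 1.15% and 1.21%. The gap of 7.92 points (adjusted p = 3.2e-09) is below the 20 points set for a call. Over the promoter, 1 kb to each side, Tnfrsf18 stood at 41.7% and 41.8% in B cells and at 32.4% and 30.8% in T cells (adjusted p = 0.163). In exon 5, which regulatory T cells are also known to demethylate, the 10 CpGs of Tnfrsf18 were at 95.7% (90.2 to 98.6) and 97.5% (94.4 to 99.2) in B cells, and at 94.6% (90.5 to 97.3) and 96.4% (92.7 to 98.5) in T cells.

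Tnfrsf4 alone among the 6 had a promoter past the test, beside 0.896% of 21082 promoters called in either direction, 0.474% called higher in B cells and 0.422% called lower. Its 25 CpGs stood at 91.8% and 91.7% in B cells and at 56.0% and 55.6% in T cells, a difference of 35.9 points (adjusted p = 0.000172). With any single file left out, sex was not a term either. The difference was then 35.7 to 36.1 points, and the promoter was not called. The called windows of the Tnfrsf4 promoter, at -1.34 and -0.34 kb, also cover the 3′ end of Sdf4. Methylation at -0.34 kb was 93.6% and 93.7% in B cells and 41.6% and 41.9% in T cells (adjusted p = 5.44e-50). At -9.34 kb, in Sdf4, it was 97.8% and 93.4% against 22.2% and 15.6%, a difference of 76.7 points (adjusted p = 2.69e-49) and the largest of all 32 called windows.

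**Figure D4:**
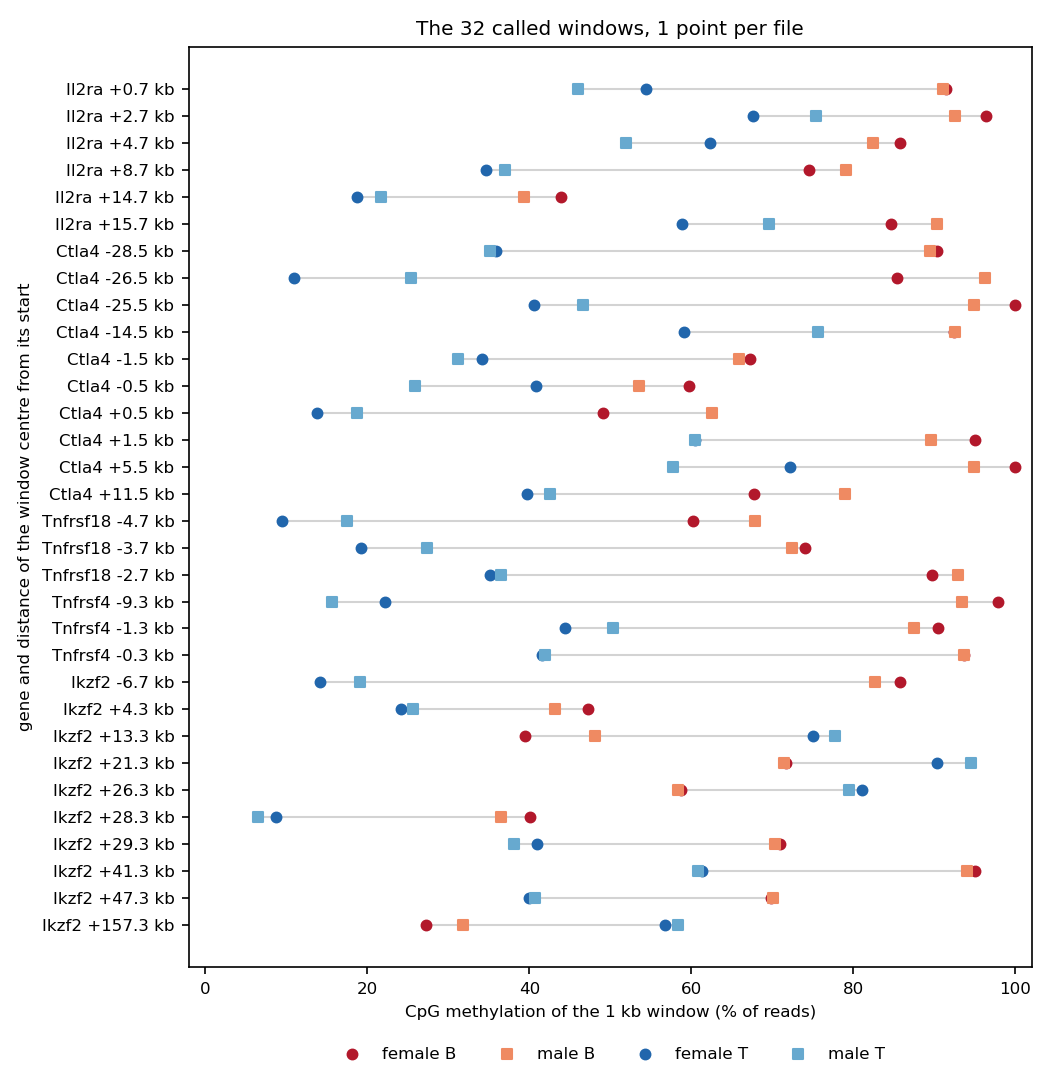
The 32 called windows, each with 1 point per file for the methylation level (percent of reads, horizontal axis) and a grey line over their range. Rows are grouped by gene and ordered by distance from its start. The red and blue points are apart in every row, and the 4 Ikzf2 rows at 13.3, 21.3, 26.3 and 157 kb have T cells above B cells.

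Ikzf2 (chr1:69531214-69687245, minus strand) encodes Helios. It was the gene with calls in both directions, 6 windows higher and 4 lower in B cells. The strongest lay upstream at -6.68 kb, where methylation was 85.7% and 82.7% in B cells, and 14.2% and 19.1% in T cells, a difference of 67.6 points (adjusted p = 1.16e-42). The others but 1 were in intron 3. At 28.3 kb the level was 40.1% and 36.6% in B cells and 8.68% and 6.53% in T cells (adjusted p = 1.35e-27), and at 41.3 kb it was 95.05% and 94.0% against 61.3% and 60.8% (adjusted p = 3.42e-14).

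The opposite order held at 13.3 kb of Ikzf2, where B cells stood at 39.4% and 48.1% and T cells at 75.0% and 77.7% (adjusted p = 5.78e-09). The windows at 26.3 kb and 157 kb were lower in B cells by 21.7 and 28.0 points, with adjusted p = 0.00937 and adjusted p = 0.0437. Under limma on log2 ratios of methylated to unmethylated reads none of the 4 was called. The 13.3 kb window, with adjusted p = 0.0969 by limma, kept its call under the other settings run for it, at differences of -28.2 to -52.9 points, the latter with at least 10 reads per CpG. The windows at 26.3 and 157 kb lost theirs under most settings. Ikzf2's promoter was unmethylated in all files, at 0.35% or less over 87 CpGs. Intron 1 was that of the principal transcript, whose start (chr1:69685821) lies inside the gene record. It held 5.35% and 4.23% in B cells and 1.43% and 0.87% in T cells. Whether this intron holds an element that regulatory T cells demethylate was not tested.

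The Ikzf2 stretch is the run of CpGs at the upstream window, and the Ikzf4 stretch is the run with the opposite order described next. Both are given on the minus strand of GRCm38, the strand of the genes, with CG in capitals.
Ikzf2 upstream chr1:69692097-69692314: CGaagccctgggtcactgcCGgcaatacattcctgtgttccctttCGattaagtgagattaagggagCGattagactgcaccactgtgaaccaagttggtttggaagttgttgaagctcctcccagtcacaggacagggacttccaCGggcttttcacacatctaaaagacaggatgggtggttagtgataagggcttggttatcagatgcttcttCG
Ikzf4 upstream chr10:128647114-128647266: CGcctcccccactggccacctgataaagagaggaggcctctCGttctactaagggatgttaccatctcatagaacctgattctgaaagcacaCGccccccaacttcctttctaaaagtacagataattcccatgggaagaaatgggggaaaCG

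The 6 CpGs of the Ikzf2 stretch were at 85.2% and 81.8% in B cells and at 6.09% and 6.61% in T cells. The CpGs at bases 46, 68, 147 and 217 held no methylated read in either T file. The B cell files were lowest at base 147, to 46.7% and 26.7%.

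Ikzf4 (chr10:128630843-128645991, minus strand) encodes Eos, a partner of Foxp3 in gene silencing. It had no called window among 34, and its promoter stood at 33.2% and 25.4% in B cells and 31.4% and 27.3% in T cells (adjusted p = 0.981). Intron 1 of Ikzf4, with 31 CpGs, was at 78.5% (74.6 to 82.0) and 75.5% (71.8 to 79.0) in B cells, and at 72.2% (68.6 to 75.6) and 75.7% (72.0 to 79.0) in T cells. The closest to a call were windows just under 20 points. At -1.51 kb B cells were at 78.0% and 80.4% and T cells at 96.2% and 98.2%, lower in B cells by 18.0 points (adjusted p = 1.34e-18). At 15.5 kb they were at 77.8% and 71.4% against 97.5% and 90.2% (adjusted p = 0.000604).

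The gap at -1.51 kb of Ikzf4 came from the 4 CpGs of the printed stretch. There B cells stood at 25.7% and 20% and T cells at 96.8% and 95.2%. At bases 42, 93 and 152 no B file exceeded 8.33%, and at base 1 the B files were at 75.0% and 76.9%. The promoter of the neighbour Rps26, a ribosomal protein gene in this region, was between 0.74% and 1.86% in all files.

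**Figure D5:**
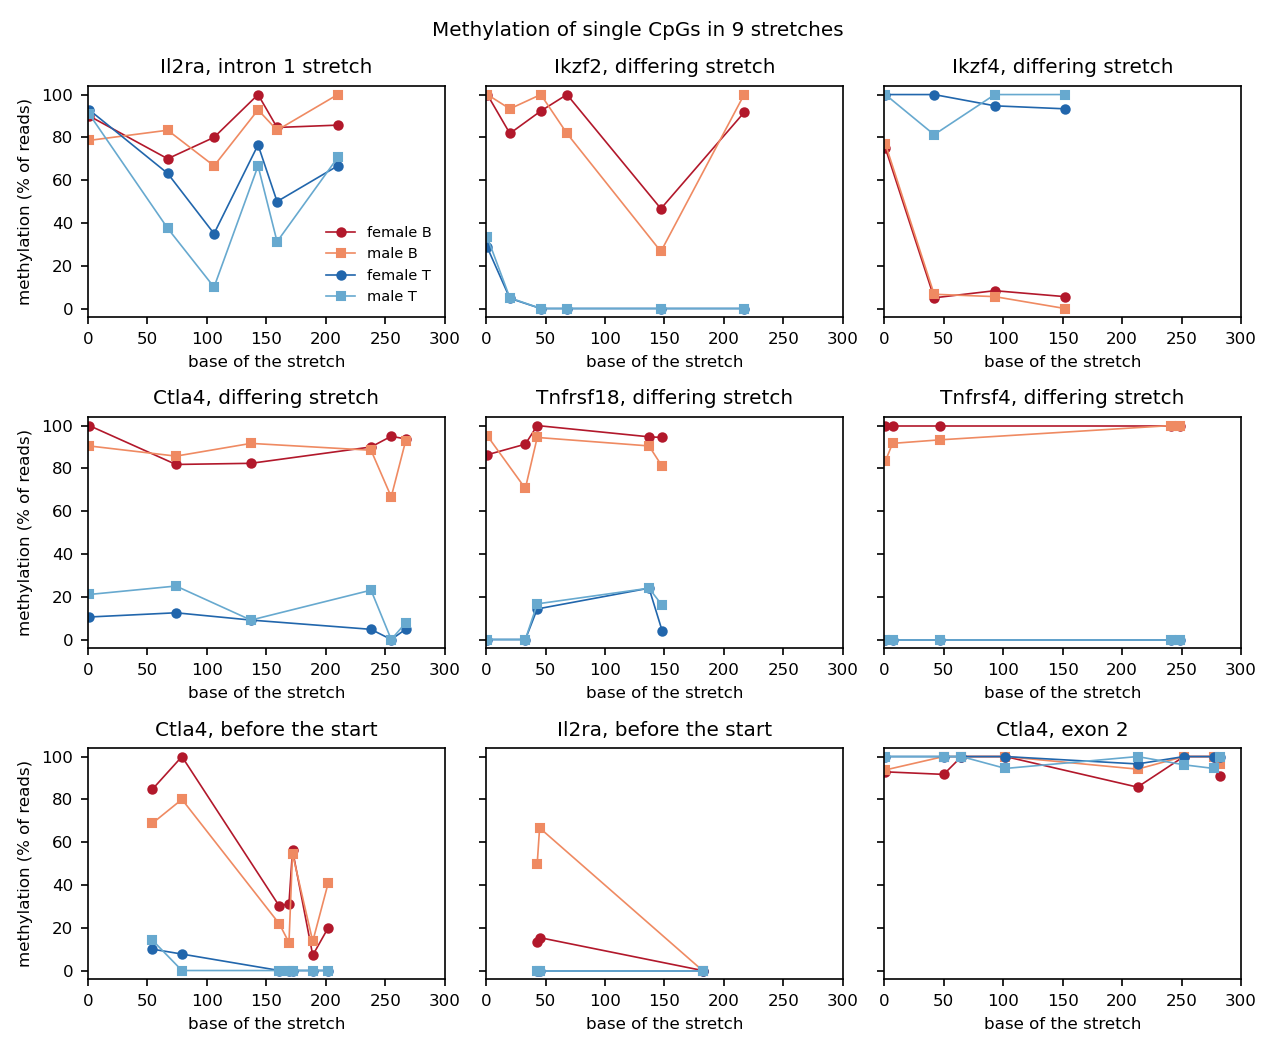
Methylation of single CpGs (percent of reads, vertical axis) along the 9 printed stretches, by base of the stretch in the direction of its gene, with 1 line per file. T cell lines lie no higher than 33.3% in the Ikzf2, distal Ctla4, Tnfrsf18 and Tnfrsf4 stretches and above the B cell lines for Ikzf4, and in Ctla4 exon 2 the 4 lines lie together above 85%.

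Over the 6 regions 17 runs of at least 4 neighbouring CpGs differed by 20 points or more in both sexes, 15 of them higher in B cells. Such runs were not counted over the genome, so these counts are a description of the regions only. The longest spanned 1137 bases and the median 218. Called windows held a median of 7.5 CG per 1 kb and a GC share of 42.5%, beside 8 CG and 42.6% over all tested windows and 10 CG and 45% over the called windows of the genome. Letters of 5 transcription factor motifs were searched on both strands, where different motifs may overlap. TTCNNNGAA, bound by STAT factors, was in 16 of the 32 called windows (50%), in 35.6% of the 309 windows of these genes that were not called, in 31.4% of all tested windows and in 29.0% of the called windows of the genome. CTTTGA, of the TCF and LEF factors, was in 22 called windows (68.8%) beside 55.0% of all windows and 58.4% of called windows of the genome. TGTGGT, of RUNX factors, was in 17 (53.1%, beside 53.6% and 63.6%), AGGAAG, of ETS factors, in 24 (75.0%, beside 69.6% and 78.9%) and TGANTCA, of AP-1, in 8 (25%, beside 26.6% and 27.7%). A cluster of 3 matches to TTCNNNGAA lies in the distal Ctla4 stretch. A match is a string of letters and not a measured binding site.

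Other genes of the regulatory T cell programme were counted from lists. Of 23 transcription factors, among them Foxp3, Bach2, Satb1 and Gata3, 0 promoters were called, beside 0.896% of all promoters. Their median difference was 0.47 points, beside 0.15 points over all promoters. The Tcf7 promoter was at 10.6% and 11.8% in B cells and at 0.46% and 0.5% in T cells (adjusted p = 1.65e-05). That of Runx3 was higher in B cells by 17.7 points (adjusted p = 0.00634) and that of Ikzf1 by 4.22 points (adjusted p = 0.0316). All of these differences were under the 20 points set for a call, and no factor promoter lower in B cells passed the adjusted p. The regions of the 23 factors held 496 called windows of 2255 (22%), 418 higher and 78 lower in B cells. Of 29 surface and secreted proteins 5 promoters were higher in B cells, Ccr8 by 61.7 points, Cd5 by 56.6, Tigit by 30, Izumo1r by 24.5 and Il2rb by 22.8, beside 0.474% of all promoters called in that direction. The promoter of Ebi3, a subunit of IL-35, was lower in B cells, at 38.5% and 37.6% against 61.7% and 58.2%. Their regions held 155 called windows of 1268 (12.2%), 124 of them higher in B cells. Beside these shares stand the 9.38% of the 6 genes and the 2.08% of the genome. Regions of the marker genes held 8.04% for myeloid cells, 8.57% for NK cells and 5% for effector T cells. The shares were 21.2% for T cell, 20.5% for B cell and 32.8% for CD8 T cell markers.

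Foxp3 itself was checked because it defines regulatory T cells and lies on the X chromosome, where female values mix an active and an inactive copy. Its promoter, taken at the first base of the gene record and so far upstream of the principal start, was not called. Of the 40 windows in its region 7 (17.5%) were called, beside 2.08% of all windows, all of them higher in B cells, and 6 of them lay upstream, from -19.8 to -6.77 kb. The one that overlaps this promoter, at -13.8 kb, was at 7.17% in male T cells against 84.8% in male B cells, and at 52.5% against 86.7% in females. In male T cells, with a single copy, the windows at -2.77 and -1.77 kb of the principal start were at 100% and 95.5%, and the window at 0.23 kb, which was called, was at 13.9% against 100% in male B cells. Female T and B cells stood at 81.7% and 90.2% in that window. Markers of other cells in the T cell sort gave mixed values: the promoters of Cd8a and Cd8b1 were also lower in T cells (2 of 2), as was that of Ifng among 4 effector genes. Regulatory T cell markers other than Foxp3 were not used as a purity check, and the part of any remaining regulatory T cells in the values above was not tested.

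Sex made no difference past the test in these regions. None of the 341 windows was called between female and male files, 16 (4.69%) had an unadjusted p under 0.05, and the lowest adjusted p was 0.213. Over autosomal windows 0.00108% were called and 4.88% had an unadjusted p under 0.05. With limma 0 windows were called and 23 had an unadjusted p under 0.05. The widest female minus male gap was 16.6 points, in the Ikzf2 region.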

How the data were processed

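Bisulfite libraries of sorted splenic B and naive T cells were analysed from 4 deposited files, 1 per group. Per the labels, the submitters' processing notes name Trim Galore, FastQC, Bismark 0.13.1 and the mm10 build, with no roles or order given; duplicate handling and conversion rates are not given in the sources used here. The fraction deposited by the authors is the methylated share of reads at each CpG, and the coverage deposited by the authors is a count of reads. Strands were merged in these files and entries began at 5 reads. The product of both columns gave the methylated reads after rounding, and in 100% of entries the fraction differed by at most 0.00101 from one made of whole reads. Positions were counted from 0 and were raised by 1.

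CpGs with 5 or more reads in all 4 files (18216084 on autosomes) were summed in 1 kb windows with at least 3 CpGs, a median of 116 reads per window and file in the 6 regions, and in promoters. A window belonged to a gene where its centre lay in the gene body or within 10 kb. Cell type and sex were the terms of a quasi-binomial regression on the reads (1 residual degree of freedom), whose dispersions were moderated with squeezeVar of limma 3.58.1 (R 4.3.3). For windows the prior degrees of freedom were infinite, so the common value of 1.29 was in effect used for every window; for promoters they were 8.24. F tests were adjusted by Benjamini-Hochberg over all windows, or all promoters, and calls also needed a difference of 20 points. The procedure was run on simulated windows drawn with this same common dispersion, which cannot show whether that value suits each real window.

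All 6 genes are named. Windows with values are the 3 per gene and direction with the largest smaller-of-both-sexes difference, plus promoters, named elements and, added after their values were seen, the Ctla4 and Tnfrsf18 start windows, Il2ra and Ikzf4 windows given as not called and runs of at least 4 neighbouring CpGs (at most 500 bases apart). List genes are named where their promoter was called, and Foxp3, Bach2, Satb1, Gata3, Tcf7, Runx3, Ikzf1, Cr2 and Lyz2 without a call. One B cell marker of the lists is not reported here and was left out of the counts. Members and lists were chosen with earlier results of these data known. Sequences come from GRCm38.p6; the promoters of 4 of the 6 genes matched RefSeq entries (GRCm38.p6), of which Ctla4 and Il2ra are printed. Alternatives covered read minimum, window and promoter width, threshold, flank, prior, model terms, Fisher's exact test, limma on log2 ratios (pseudocount 1) and leaving out each file. With a file left out sex was not a term, and differences were taken between the means of the cell types.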

Additional observations from a re-analysis of the deposited data

Results flagged for a closer look

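At Ikzf4 the female and male files differed in the direction of B minus T. Its promoter was higher in B cells by 1.84 points in females, while B minus T was -1.91 points in males. For Ikzf4 intron 1 the female files gave a B minus T of 6.29 points and the male files -0.14 points. For intron 1 the opposite signs depended on the setting. With 10 reads per CpG Ikzf4 intron 1 was higher in B than in T cells of both sexes, at 78.7% against 71.2% in females and 76.6% against 75.2% in males. As a mean over CpGs it stood lower in B than in T cells of both sexes, at 71.1% against 73.8% in females and 71.5% against 72.5% in males. The difference between the sexes was not tested, and each sex has 1 file per cell type.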

How the results depend on the processing

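The 32 called windows of 341 tested became 55 with a threshold of 10 points (39 higher and 16 lower in B cells) and 21 with 30 points. Gene bodies with no flank held 20 of 241 tested. Under limma on log2 ratios 17 of 341 were called, and none of the lower-B windows. The regions without that of Ikzf2, an alternative chosen after seeing the data, held 22 of 177 tested, all higher in B cells. Other settings gave 25 (10 reads per CpG, 263 tested) to 44 (500 bp windows, 480 tested), and leaving out each file gave 28 to 32. The count of called promoters, 1, became 2 with 500 bp to each side, with 10 reads per CpG and under Fisher's exact test in each sex, each adding Il2ra (adjusted p = 0.00687, adjusted p = 0.00729 and adjusted p = 0.0263 by these settings), and 2 from the principal transcript's start, a choice made after seeing the data, which added Ctla4. Leaving out each file in turn left 0 called promoters, at an adjusted p for Tnfrsf4 of 0.0521 to 0.0755. Il2ra intron 1 moved beyond its counting interval as a mean over CpGs (70.05% in female B, 67.9% in female T and 67.1% in male T cells) and with 10 reads per CpG (63.6% and 64.2% in B cells and 62.8% and 62.2% in T cells of females and males), and Ikzf4 intron 1 as a mean over CpGs (71.1% and 71.5% in female and male B cells). The sex comparison stayed at 0 called windows in every setting run. Of the named Ikzf2 windows, those at 26.3 and 157 kb lost their call under most settings, and the Il2ra window at 4.69 kb lost its call under limma (adjusted p = 0.117) and at 30 points. Of the named windows and member promoters recomputed under these settings, none with a call changed its direction, while other called windows (such as that of Ctla4 at 0.48 kb and those of Foxp3) and the promoters of list genes were not recomputed singly. The Ikzf4 promoter, which was not called, went from -0.039 points to 5.05 with 500 bp to each side, 2.24 with 10 reads per CpG and -3.97 to 3.89 with a file left out. B and T cells were compared within each sex, except with a file left out. Without sex as a term 31 windows were called. No pairing by replicate number could be made, since the groups share none.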

Other observations

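Several windows of these genes passed the adjusted p but not the 20 points set for a call, and they are given as values chosen after they were seen. Downstream of Tnfrsf18, at 4.34 kb from its start, B cells stood at 85.2% and 84.3% in females and males, T cells at 66.0% and 66.4% (adjusted p = 4.78e-07). Just inside Tnfrsf4, at 0.66 kb, B cells stood at 90.9% and 90.9%, T cells at 75.8% and 78.4% (adjusted p = 3.04e-05). In intron 5 of Ikzf4, at 8.49 kb, a stretch of low methylation was at 32.7% and 23.9% in B cells and at 13.7% and 18.9% in T cells (adjusted p = 3.4e-05). Other low stretches were shared by both cell types. Past the 3' end of Ctla4, at 7.48 kb, B cells stood at 12.8% and 13.3% and T cells at 19.9% and 21.7% (adjusted p = 0.112), and upstream of Il2ra, at -6.31 kb, the 4 files lay between 10.3% and 23.8% (adjusted p = 0.54).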
